A study of Mus musculus with 16 samples.

Results

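Angiopoietin-1, its receptor family and 7 further surface proteins shared by endothelial cells and haematopoietic stem cells (HSCs) were examined in RNA from mouse bone marrow HSCs. The 10 genes were Angpt1, Tek, Tie1, Esam, Robo4, Jam2, Procr, Eng, Emcn and Cd34, taken by symbol from the 25239 genes of the count table. Each of the 10 was found once and passed the filter on low counts, as did 14124 genes in all.

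The 16 libraries came from HSCs of mice aged 4 to 6 months and formed 6 groups. There were 3 libraries from cells with a knockout of Selp (KO) cultured with the P-selectin ligand PSGL-1, and 2 from cells with wild-type Selp (WT) cultured with it. Vehicle cultures gave 3 KO and 3 WT libraries, and freshly sorted cells gave 2 KO and 3 WT libraries. PSGL-1 was used at 125 ng/mL for 24 hours. Growth medium held fetal calf serum at 10%, stem cell factor at 300 ng/mL, interleukin-11 at 20 ng/mL and Flt-3 ligand at 1 ng/mL. The sources used here do not give the duration of the vehicle culture, the knockout allele, the strain or the sorting gate. Nothing in the labels ties the libraries of a group to separate mice, so all p-values here reflect variation among the libraries, and this may be technical variation.

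Angiopoietin-1 is the secreted activating ligand of Tie2, the receptor tyrosine kinase encoded by Tek. Tie1 is a related receptor that forms complexes with Tie2 and modulates its signalling. In bone marrow the pathway is known for its part in HSC quiescence and in the maturation of blood vessels. The other genes encode proteins of endothelium that are also found on HSCs or early progenitors, and HSCs share a developmental origin with endothelium. These proteins comprise junctional adhesion molecules, a roundabout receptor, a protein C receptor, a co-receptor for TGF-beta family ligands and sialomucins.

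Promoter sequences are shown for Cd34 and Tie1, the 2 genes with a called difference on culture that had a window in the RefSeq promoter table, on GRCm38.p6. The table held a window for 7 of the 10 genes, all but Angpt1, Esam and Jam2. Each window ends at the base before the transcription start and is printed 5′ to 3′ on the gene's strand. It lies at chr1:194938571-194938820 on the plus strand for Cd34 and at chr4:118489850-118490099 on the minus strand for Tie1. Capitals mark the letters GGAAG or CTTCC (the core of ETS sites), GATAA or TTATC (GATA sites) and TGTGG or CCACA (RUNX sites), the last of each pair being the same motif on the other strand.
Cd34: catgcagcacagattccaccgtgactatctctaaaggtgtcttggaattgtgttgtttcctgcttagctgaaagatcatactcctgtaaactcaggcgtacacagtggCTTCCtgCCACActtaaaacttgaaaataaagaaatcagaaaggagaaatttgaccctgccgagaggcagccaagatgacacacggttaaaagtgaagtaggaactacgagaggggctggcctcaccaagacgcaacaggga
Tie1: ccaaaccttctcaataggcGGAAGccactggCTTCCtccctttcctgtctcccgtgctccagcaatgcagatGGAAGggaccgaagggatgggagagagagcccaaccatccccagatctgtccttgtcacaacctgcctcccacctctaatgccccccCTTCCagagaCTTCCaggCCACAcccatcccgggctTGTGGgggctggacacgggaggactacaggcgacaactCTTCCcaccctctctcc
The Tie1 window held 6 matches to GGAAG and 2 to TGTGG, and the Cd34 window 1 and 1. Neither held GATAA, and no 2 matches overlapped. Of the 32851 windows of this length in the table, 64.1% held GGAAG, 49.3% TGTGG and 22.6% GATAA. A match describes letters in the window, not a site.

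Totals ran between 12590539 and 24690824 counts. One library, WT PSGL-1 replicate 1, was sparse: 9035 genes were detected in it, against 11101 to 13480 elsewhere, and 5165 of the tested genes had no counts, although only 2 of the 16 libraries had a higher total. It listed Tek, Robo4, Emcn and Jam2 at 0, where 3 counts, taken as the floor of detection, are 0.169 scaled CPM. Selp, which encodes P-selectin, had 0 to 12.6 scaled CPM in the 8 KO libraries and 16.3 to 188 in the 8 WT libraries, which did not overlap. Its log2 fold change averaged over conditions, -4.72 (SE 0.94), did not pass in edgeR (adjusted p = 0.178). All 20 genes of an HSC marker list averaged at least 5 scaled CPM. Of 19 endothelial defining markers, 6 averaged at least 5 scaled CPM, led by Egfl7 at 156 and Cd93 at 71.9, and 9 averaged under 1. Of these, Ptprb, Lyve1, Sox17 and Sele had 0 counts in all 16 libraries, and Cdh5, the vascular cadherin, had counts in 2 of them at no more than 1.09 scaled CPM.

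Levels are given as scaled CPM, that is, CPM over library sizes adjusted with TMM factors (trimmed mean of M values), so that libraries are comparable. Per kilobase of merged exons, Cd34 was the most abundant of the 10 genes over all libraries at 88.4 CPM per kb, with Esam at 81.1 and Eng at 57.3. Tie1 followed at 48.4, Angpt1 at 42.3 and Procr at 33.0 CPM per kb. Robo4 and Tek were at 7.52 and 7.47, Emcn at 3.73 and Jam2 at 3.04 CPM per kb. In fresh WT cells the order differed, with Esam at 87.9, Angpt1 at 78.4, Eng at 67.0, Tie1 at 51.6, Cd34 at 45.6 and Procr at 38.9 CPM per kb. The receptor Tek was thus at 11.4 CPM per kb in the same fresh WT cells in which its ligand gene stood at 78.4.

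The abundant genes were also the ones measured most evenly. The within-group SD of log2 CPM was 0.205 for Cd34, 0.275 for Esam, 0.356 for Tie1 and 0.357 for Angpt1. Eng had 0.494 and Procr 0.716, all below the median of 1.18 over the tested genes. The 4 sparse genes were above that median, with 1.56 for Emcn, 2.02 for Tek, 2.09 for Jam2 and 2.54 for Robo4. In the comparison of vehicle with fresh cells averaged over genotypes, the standard error of the log2 fold change ran from 0.84 to 1.04 in these 4 genes and from 0.14 to 0.40 in the other 6.

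**Figure D1:**
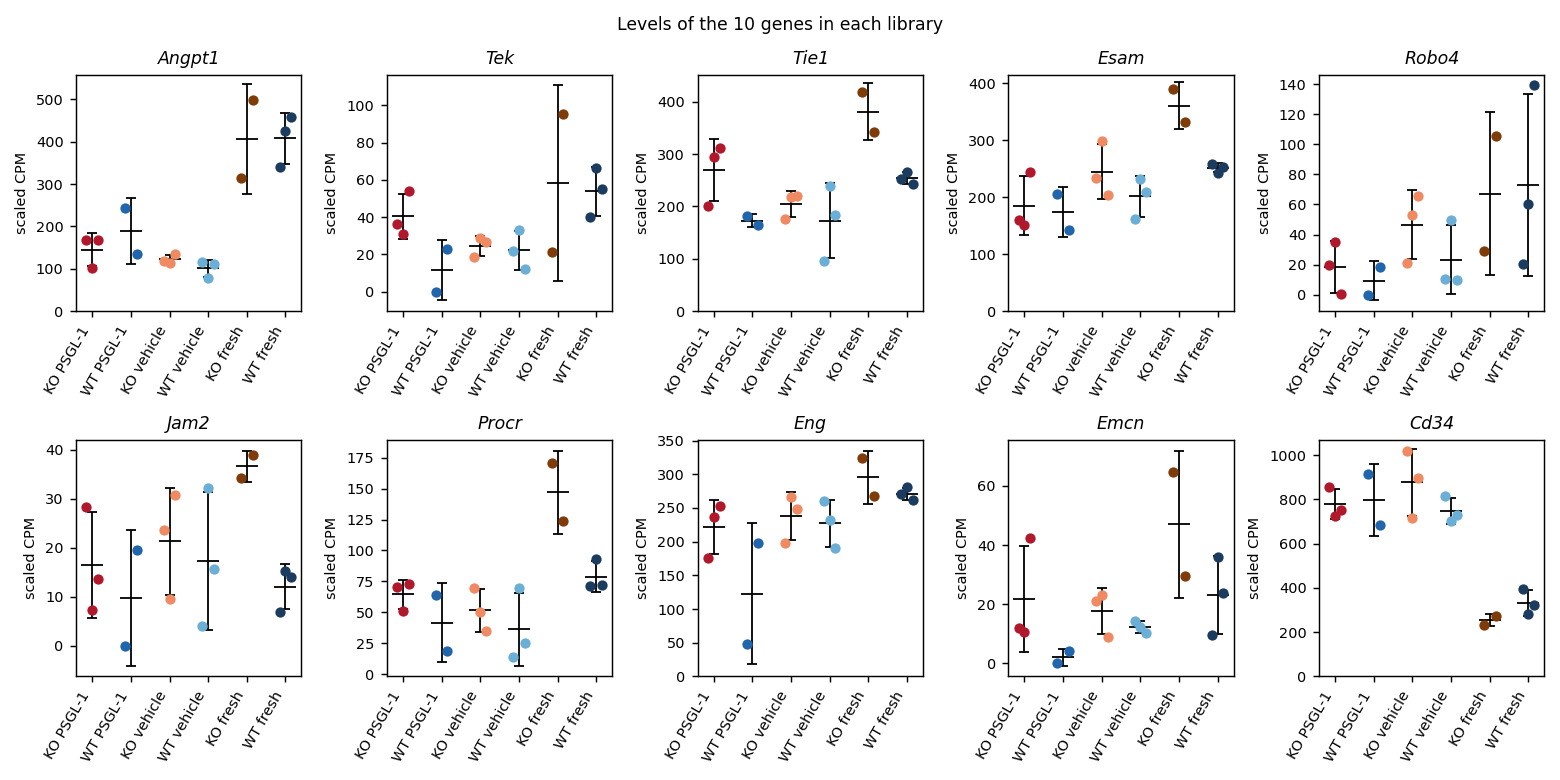
Scaled CPM of the 10 genes in each of the 16 libraries, by group on the horizontal axis; points are libraries, the long line is the group mean and the bars are 1 SD. Angpt1 lies at 78.6 to 245 in the 11 cultured libraries and at 315 to 498 in the 5 fresh ones, while Cd34 lies at 684 to 1019 in cultured and 234 to 394 in fresh cells.

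Culture with vehicle was set against fresh cells in each genotype. Of the 10 genes, Cd34 rose and Angpt1 fell in KO and again in WT cells, and Tie1 fell when both genotypes were averaged. The other 7 genes did not pass the threshold of an adjusted p under 0.05 over all tested genes (edgeR quasi-likelihood test, Benjamini-Hochberg). That makes 1 of 10 genes higher and 1 lower in KO cells, where 1.77% of all tested genes were called, 1.23% higher and 0.538% lower. In WT cells it was again 1 higher and 1 lower, where 1.64% were called, 1.23% higher and 0.404% lower. Averaged over genotypes it was 3 of 10, against 6.48% of all tested genes. Of the 10 fold changes of that average, 9 were below 0, with a median log2 fold change of -0.91, against -0.07 over all tested genes. In bulk RNA, fewer cells of a type and less RNA per cell cannot be told apart.

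Angpt1 encodes the Tie2 ligand and lies at chr15:42424667-42676977 on the minus strand. It had 119, 114 and 135 scaled CPM in KO vehicle libraries, against 315 and 498 in KO fresh libraries. WT vehicle libraries had 116, 78.6 and 110, against 341, 425 and 458 in WT fresh libraries. Every vehicle library lay below every fresh library of either genotype. The log2 fold change was -1.73 in KO (SE 0.31, edgeR adjusted p = 0.00905) and -2.00 in WT (SE 0.29, adjusted p = 0.00207). Averaged over genotypes it was -1.87 (SE 0.21, adjusted p = 7.08e-05). The KO call was lost without KO fresh replicate 2, where the fold change was -1.33 with an adjusted p of 0.0563. In that fit the lone remaining KO fresh library is assumed to vary like the other groups.

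Cd34 encodes the sialomucin CD34, which is low on the most primitive adult mouse HSCs and high on many progenitors and on capillary endothelium. The gene lies at chr1:194938821-194961292 on the plus strand. Its level was 1019, 715 and 894 scaled CPM in KO vehicle libraries, against 234 and 273 in KO fresh libraries. WT vehicle libraries had 814, 703 and 729, against 394, 281 and 321 in WT fresh libraries. Vehicle and fresh libraries did not overlap. The log2 fold change was 1.79 in KO (SE 0.22, edgeR adjusted p = 0.000547) and 1.17 in WT (SE 0.18, adjusted p = 0.00384). The difference between these responses, 0.62 (SE 0.27), had an unadjusted p of 0.0389 and an adjusted p of 1 in the edgeR fit, so it did not pass. Averaged over genotypes the fold change was 1.48 (SE 0.14, adjusted p = 1.95e-05).

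The ratio of Angpt1 to Cd34 counts within a library needs no scaling between libraries. It is given as a description, since each gene had already been called, in opposite directions, without overlap. With PSGL-1, Angpt1 counts were 0.196, 0.139 and 0.223 times those of Cd34 in KO and 0.268 and 0.196 times in WT libraries. The ratio was 0.117, 0.16 and 0.151 in KO vehicle libraries and 0.143, 0.112 and 0.151 in WT vehicle libraries. It was 1.34 and 1.83 in KO fresh libraries, and 0.864, 1.51 and 1.43 in WT fresh libraries. All 11 cultured libraries were below all 5 fresh ones.

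**Figure D2:**
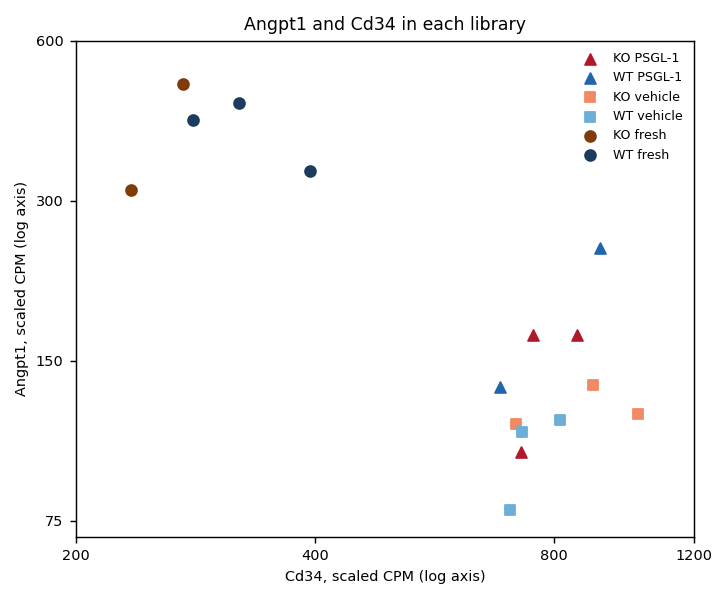
Angpt1 against Cd34 in scaled CPM, both on log axes; each point is a library, with shapes for the condition and colours for the group. The 11 cultured libraries lie at the lower right, with WT PSGL-1 replicate 1 the highest of them in Angpt1 at 245, and the 5 fresh ones lie at the upper left.

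Tie1, the orphan partner of Tie2, lies at chr4:118471191-118489849 on the minus strand. It had 176, 217 and 220 scaled CPM in KO vehicle libraries, against 419 and 342 in KO fresh libraries. WT vehicle libraries had 96.4, 238 and 183, against 253, 265 and 242 in WT fresh libraries. The highest vehicle library, at 238, was just under the lowest fresh library, at 242. The averaged log2 fold change was -0.73 (SE 0.20, edgeR adjusted p = 0.0439). It was -0.90 (SE 0.30) in KO and -0.56 (SE 0.27) in WT cells, and neither passed alone. The call was close to the threshold. It held without KO PSGL-1 replicate 1, WT vehicle replicate 2 or either WT PSGL-1 library, and was lost on leaving out any of the other 12 libraries, with an adjusted p of up to 0.148.

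Tek, the Tie2 gene at chr4:94739086-94874976 on the plus strand, had 18.7, 28.6 and 26.8 scaled CPM in KO vehicle libraries, against 21.0 and 95.4 in KO fresh libraries. WT vehicle libraries had 21.7, 32.9 and 12.1, against 40.2, 66.3 and 55.3 in WT fresh libraries. The WT groups did not overlap, where 12.7% of all tested genes were lower without overlap, and the KO groups did. For Tek the averaged log2 fold change was -1.26 with an SE of 0.84 (edgeR adjusted p = 0.462), which was within the spread.

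Procr encodes the endothelial protein C receptor, known as EPCR or CD201 and used to isolate HSCs. It lies at chr2:155751125-155755478 on the plus strand. It had 69.3, 50.0 and 35.2 scaled CPM in KO vehicle libraries, against 171 and 123 in KO fresh libraries. WT vehicle libraries had 13.9, 69.6 and 25.2, against 71.3, 93.4 and 72.0 in WT fresh libraries. Every vehicle library was below every fresh library, by a small margin at 69.6 against 71.3. Its averaged log2 fold change was -1.32 (SE 0.40) and did not pass, with an edgeR adjusted p of 0.0675. It passed with DESeq2 (-1.38, adjusted p = 0.015) and with limma and library quality weights (-1.59, adjusted p = 0.00347). In edgeR it passed without a filter on low counts (adjusted p = 0.0496) and with the groups fitted alone (0.0351). It also passed without either WT PSGL-1 library and without WT vehicle replicate 2, the highest vehicle library (-1.76, adjusted p = 0.00932). With each library left out in turn the fold change ran from -1.76 to -1.12, and some of these fits did not pass.

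Non-overlap over both genotypes was thus found for 3 lower genes, Angpt1, Tie1 and Procr, and 1 higher gene, Cd34. Among all tested genes, 4.91% were lower and 4.56% higher in every vehicle library than in every fresh library.

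None of the junctional and adhesion genes passed in edgeR. Esam, an immunoglobulin-family adhesion molecule of endothelial junctions that marks HSCs, had 234, 298 and 203 scaled CPM in KO vehicle libraries, against 390 and 332 in KO fresh libraries. WT vehicle libraries had 163, 233 and 209, against 258, 243 and 254 in WT fresh libraries. Vehicle libraries were below fresh ones within each genotype, though not across them, where 19.0% of all tested genes in KO and 12.7% in WT were lower without overlap. Its averaged log2 fold change was -0.44 (SE 0.18, edgeR adjusted p = 0.169), and passed in limma alone (-0.47, adjusted p = 0.0454).

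Eng encodes endoglin, the co-receptor for TGF-beta family ligands, and had 191 to 267 scaled CPM over the 6 vehicle libraries, against 262 to 324 over the 5 fresh ones. The 2 ranges overlapped at their edges, though not within either genotype, and the averaged log2 fold change was -0.28 (SE 0.26, edgeR adjusted p = 0.643). Robo4, a roundabout receptor of endothelium and HSCs, ranged over 9.83 to 65.6 scaled CPM in vehicle and 20.5 to 139 in fresh libraries, with a log2 fold change of -1.09 (SE 1.04, adjusted p = 0.655). Emcn encodes endomucin, a sialomucin of venous endothelium and HSCs, and ranged over 8.89 to 23.1 in vehicle and 9.52 to 64.6 in fresh libraries (-1.16, SE 0.86, adjusted p = 0.529). Jam2, a junctional adhesion molecule, ranged over 3.99 to 32.1 and 6.84 to 38.9 scaled CPM, and its fold change of -0.13 (SE 0.99, adjusted p = 1) changed sign when single libraries were left out. For all 4 genes the vehicle and fresh libraries overlapped over both genotypes, though in KO cells alone Emcn and Jam2 were lower without overlap. Of the 10 genes, 7 were lower without overlap in KO and 6 in WT cells, where 19.0% and 12.7% of all tested genes were. Higher without overlap was 1 gene in each, where 16.3% and 10.3% of all tested genes were.

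**Figure D3:**
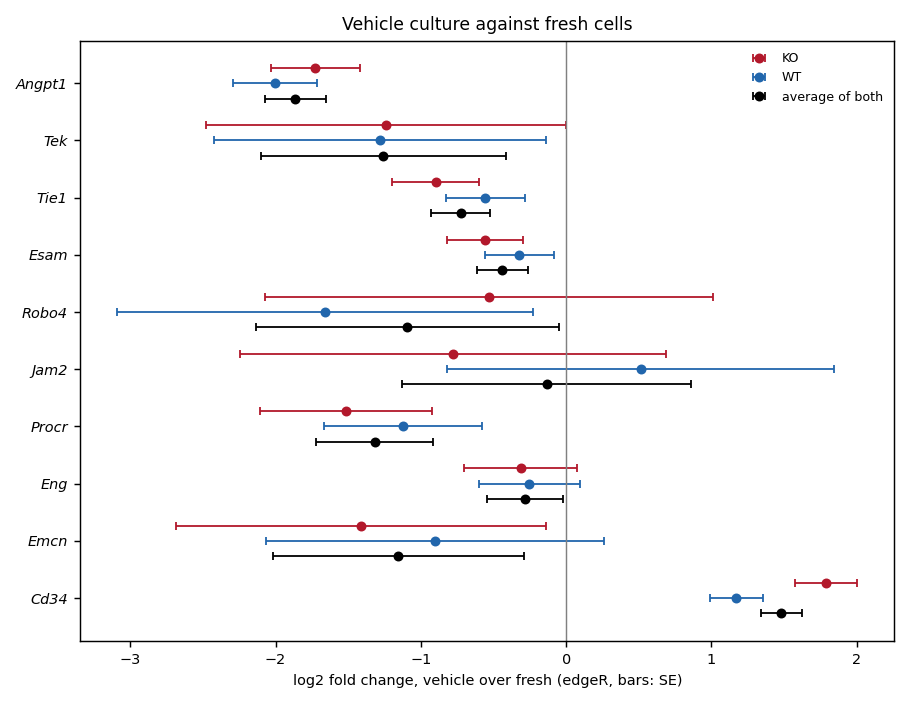
Log2 fold changes of the 10 genes, vehicle over fresh, in KO cells, in WT cells and averaged over both; points are edgeR estimates and bars are 1 SE. Cd34 alone lies to the right of 0 in all 3 estimates, at 1.17 to 1.79, and Angpt1 lies farthest to the left among the genes with narrow bars, at -2.00 to -1.73.

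Robo4 and Esam lie near each other on chromosome 9, Robo4 at chr9:37401902-37414023 and Esam at chr9:37528089-37538319, both on the plus strand and 114066 bases apart. Between them lie Robo3 and Msantd2. Robo3, a roundabout receptor best known from axon guidance at the midline, averaged 165 scaled CPM in vehicle and 21.0 in fresh libraries, and rose by 3.04 on the log2 scale (edgeR adjusted p = 0.000131), while its neighbours Robo4 and Esam had fold changes of -1.09 and -0.44. Robo3 lies on the minus strand, and its 3′ end faces that of Robo4 across 2022 bases. Since the strand setting of the counting is not given, reads running past either end could be assigned to the other gene. Whether any were was not tested.

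The partners of these genes were read from lists chosen with earlier results of the data known, and their counts stand beside the 4.18% of all tested genes called higher and 2.3% called lower on the averaged comparison. In the angiopoietin and Tie list, 1 of 25 tested genes rose, Ptpn11 (0.67, SE 0.19), which encodes the phosphatase SHP2. Pik3r1, the regulatory subunit of PI 3-kinase, fell (-0.87, SE 0.22), and the list's median was -0.01. Angpt2, the context-dependent antagonist of Tie2, had at most 1.56 scaled CPM in any library and no counts in 10 of 16, a gene named after its values were seen. Ptprb, the phosphatase that opposes Tie2 in endothelium, had no counts. The downstream kinase gene Akt1 was the most abundant of the list at 545 scaled CPM over all libraries.

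Among 20 tested partners of endoglin, Id2 (1.59, SE 0.45), a target of BMP signalling, and Tgfb1 (0.78, SE 0.21), a ligand gene, rose, and none fell. The endoglin ligand genes Gdf2 and Bmp10 had no counts. Of 10 tested genes around the protein C receptor, Itga4, an integrin subunit for marrow retention, fell (-2.11, SE 0.41), and Proc itself had no counts. Robo3 was the only called gene of 12 tested in the Robo and Slit list, and none passed in edgeR among 14 genes around the junctional molecules or 11 sialomucin genes. These 2 lists had medians of 0.11 and 0.26.

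Of 15 tested genes in a list of transcription factors of HSCs, most of them also used by endothelium, 4 fell and none rose: Nfe2 (-1.27, SE 0.17), Lmo2 (-1.25, SE 0.13), Meis1 and Gata2. Nfe2 is known mainly as a factor of megakaryocytes and red cells. In the HSC marker list, which shares 3 of these genes, 7 of 20 fell and 1 rose. Ly6a, the Sca-1 gene, rose (2.14, SE 0.18), while Pdzk1ip1 (-1.81, SE 0.26) and Mllt3 (-1.44, SE 0.36), a factor for HSC maintenance, fell.

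Markers of other cell types were summed in the same libraries. The summed level of the granulocyte and monocyte list was 356 to 622 scaled CPM in vehicle and 874 to 1430 in fresh libraries, and 2 of 13 tested genes fell, Prtn3 (-2.50, SE 0.38) and Lyz2 (-2.02, SE 0.16). The erythroid list summed to 514 to 1010 in vehicle and 1440 to 2630 in fresh libraries, of which Car2, which fell (-1.48, SE 0.16), made up 96.2%. The megakaryocyte list overlapped, at 984 to 1780 in vehicle and 1340 to 2010 in fresh libraries. In it 1 of 14 tested genes rose, Itgb3 (1.86, SE 0.33), and 3 fell, among them Thbs1 and Gp9 (-2.33, SE 0.52). T and NK cell genes summed to 10.4 to 21.8 in vehicle and 38.6 to 100 in fresh libraries, with 1 of 3 tested genes falling, Klrb1c. The early lymphoid and Flt3-type progenitor genes summed to 171 to 407 in vehicle and 417 to 623 in fresh libraries, with 1 of 7 falling, Lsp1 (-1.89, SE 0.31). Their part in the fall of Angpt1 and Tie1 and the rise of Cd34 was not tested.

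Neither the endothelial nor the stromal list had a called gene on culture. The 19 endothelial markers summed to 274 to 371 scaled CPM in vehicle and 302 to 454 in fresh libraries, with Egfl7 and Cd93, both also expressed in HSCs, making up 45.1% and 20.8% of the sum over all libraries. Of the 19, 14 were tested. Of 17 stromal markers, 14 averaged under 1 scaled CPM, Vcam1 averaged 2.38, and Pdgfrb and Col1a2 averaged 47.7 and 33.5. Of these markers 4 were tested. The stromal sum was 39.4 to 98.6 in vehicle and 67.8 to 116 in fresh libraries. B cell genes summed to 14.9 to 62.6 in vehicle and 40.0 to 57.3 in fresh libraries, with no call among 2 tested.

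Adding PSGL-1 to the culture was compared with vehicle within each genotype. None of the 10 genes passed in edgeR, DESeq2 or limma in either genotype, against 0.0% of all tested genes in edgeR. In KO cells none had an unadjusted p under 0.05 either, and the 10 log2 fold changes lay between -1.32 and 0.71. In WT cells 2 genes had an unadjusted p under 0.05, Angpt1 and Eng. Among all tested genes in edgeR that share was 1.4% in KO and 5.68% in WT cells. Over both genotypes, the PSGL-1 and vehicle libraries of all 10 genes overlapped, where 0.106% of all tested genes were higher and 0.113% lower without overlap.

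Angpt1 had 245 and 134 scaled CPM in WT PSGL-1 libraries, against 116, 78.6 and 110 in WT vehicle libraries. Both PSGL-1 libraries were above all 3 vehicle libraries, as were those of 5.88% of all tested genes. The log2 fold change was 0.90 (SE 0.31, unadjusted p = 0.0103, edgeR adjusted p = 0.774). It was 0.39 without the sparse WT PSGL-1 replicate 1, where a lone library stands for that group. The stromal list summed to 112 to 271 scaled CPM in WT PSGL-1 libraries, against 44.9 to 71.7 in WT vehicle libraries. Nearly all of the sum came from Pdgfrb, at 101 to 133 against 44.4 to 64.6, and from Col1a2, at 6.89 and 138 against 0.307 to 7.07, while Cxcl12, Lepr, Pdgfra and Kitl had no counts in either group. Their part was not tested. In KO cells Angpt1 had 168, 101 and 168 scaled CPM with PSGL-1 and 119, 114 and 135 with vehicle, which overlapped.

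Eng had 48.6 and 197 scaled CPM in WT PSGL-1 libraries, against 260, 232 and 191 in WT vehicle libraries. The low value is that of the sparse library, and the other lay within the vehicle range. The log2 fold change of -0.89 (SE 0.40, unadjusted p = 0.0431, edgeR adjusted p = 0.774) was -0.21 without the sparse library, which leaves a lone WT PSGL-1 library. Emcn had 0 and 3.98 in WT PSGL-1 libraries, against 14.4, 12.3 and 10.4 in WT vehicle libraries, with no overlap, where 8.07% of all tested genes were lower without overlap. Its log2 fold change of -2.63 (SE 1.44, edgeR adjusted p = 0.774) was -1.64 without the sparse library, again with a lone library in that group. Tek in KO cells had 36.6, 30.7 and 54.1 scaled CPM with PSGL-1 against 18.7, 28.6 and 26.8 with vehicle, without overlap. It was the 1 of the 10 genes that was higher without overlap in KO cells, and none was lower, where 4.1% of all tested genes were higher and 3.96% lower. Its log2 fold change of 0.71 had an SE of 1.13 (edgeR adjusted p = 1).

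The levels with PSGL-1 stayed on the cultured side for Angpt1 and Cd34. Across both genotypes, Angpt1 had 101 to 245 scaled CPM in the 5 PSGL-1 libraries, against 315 to 498 in the 5 fresh libraries. Cd34 had 684 to 913 in PSGL-1 libraries, against 234 to 394 in fresh libraries. Eng had 48.6 to 253 in PSGL-1 and 262 to 324 in fresh libraries. These 3 genes did not overlap, 1 of them higher and 2 lower, where 4.18% and 5.49% of all tested genes were higher and lower.

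KO was set against WT in each condition to ask what the loss of Selp changes in these genes. None of the 10 genes passed in edgeR, DESeq2 or limma in fresh, vehicle or PSGL-1 cells or averaged over the 3 conditions. The share of all tested genes called in edgeR was 0.00708% in each condition, all of it higher. It was 0.0354% on the average, 0.0212% higher and 0.0142% lower. Without adjustment, 0 of the genes had a p under 0.05 in fresh cells, 0 with vehicle, 1 with PSGL-1 (Emcn) and 2 on the average (Tie1 and Emcn). Among all tested genes in edgeR the share was 2.84% in fresh cells, 2.83% with vehicle, 5.81% with PSGL-1 and 6.84% on the average. Of the averaged log2 fold changes, 8 of 10 were above 0, with a median of 0.56 against 0.07 over all tested genes, of which 56% were above 0. Without the sparse library all 10 were above 0, with a median of 0.38. With vehicle all 10 were above 0, between 0.06 and 1.00, against 49.8% of all tested genes. The 8 KO and 8 WT libraries overlapped for all 10 genes, where 0.0637% of all tested genes were higher and 0.0425% lower without overlap.

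Tie1 had the smallest unadjusted p of the 10 genes. It had 201, 294 and 312 scaled CPM in KO PSGL-1 libraries against 182 and 164 in WT PSGL-1 libraries, with no overlap. Of the 10 genes, 3 were higher without overlap with PSGL-1, Tek, Tie1 and Emcn, and none lower, where 10.8% of all tested genes were higher and 6.92% lower. In fresh cells it had 419 and 342 in KO against 253, 265 and 242 in WT, again with no overlap. The vehicle libraries overlapped, at 176, 217 and 220 in KO against 96.4, 238 and 183 in WT. The averaged log2 fold change was 0.49 (SE 0.17, unadjusted p = 0.0113, edgeR adjusted p = 0.611), and 0.52 without the sparse library.

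Emcn had 11.9, 10.6 and 42.4 scaled CPM in KO PSGL-1 libraries, against 0 and 3.98 in WT PSGL-1 libraries. With vehicle it had 21.1, 23.1 and 8.89 in KO against 14.4, 12.3 and 10.4 in WT, and in fresh cells 64.6 and 29.5 in KO against 9.52, 36.0 and 23.8 in WT. The PSGL-1 groups did not overlap, and the others did. The averaged log2 fold change was 1.66 (SE 0.74, unadjusted p = 0.0411, edgeR adjusted p = 0.712) and 1.33 without the sparse library. That with PSGL-1 was 3.44 (SE 1.51) and 2.45 without the sparse library, where a lone library stands for the WT PSGL-1 group.

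Procr averaged 64.7 ± 11.8 scaled CPM in KO PSGL-1 libraries (SD, n = 3) and 41.6 ± 32.0 in WT PSGL-1 libraries (n = 2). With vehicle it averaged 51.5 ± 17.1 in KO and 36.2 ± 29.4 in WT libraries (n = 3 each). In fresh cells it had 147 ± 33.6 in KO (n = 2) and 78.9 ± 12.5 in WT (n = 3). The averaged log2 fold change of 0.68 (SE 0.34, edgeR adjusted p = 0.754) was 1.06 without the sparse library, where its adjusted p was 0.667.

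In fresh cells 4 of the 10 genes were higher in both KO libraries than in all 3 WT libraries, where 9.78% of all tested genes were, and 1 was lower, where 9.2% were. The higher genes were Tie1, Esam, Procr and Jam2, and the lower was Cd34. Esam had 390 and 332 scaled CPM in KO fresh libraries, against 258, 243 and 254 in WT fresh libraries (log2 fold change 0.52, SE 0.26, edgeR adjusted p = 1). Procr had a log2 fold change of 0.90 (SE 0.59). Jam2 had 34.3 and 38.9 scaled CPM in KO against 6.84, 15.4 and 14.1 in WT fresh libraries (1.60, SE 1.47). Cd34 had 234 and 273 in KO against 394, 281 and 321 in WT fresh libraries (-0.39, SE 0.20). All had an adjusted p of 1.

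Some endothelial markers were also higher in fresh KO cells, chosen here after their values were seen. Kdr, the VEGF receptor 2 gene, averaged 30.6 scaled CPM in KO and 1.91 in WT fresh libraries, Sox18 49.5 and 7.68, and Cldn5 14.9 and 0. The sum of the whole list was 339 to 454 in KO and 302 to 414 in WT fresh libraries, which overlapped, and Cd93 was lower, at 71.5 in KO and 127 in WT. None of the 14 tested endothelial genes passed in edgeR between genotypes. The sums of the erythroid, megakaryocyte, stromal, B cell, and early lymphoid and Flt3-type progenitor lists overlapped between the fresh groups as well. Other lists did separate the fresh groups. The granulocyte and monocyte list summed to 1420 to 1430 in KO and 874 to 1040 in WT fresh libraries, the HSC marker list to 7080 to 9480 and 6050 to 6750, and the T and NK cell list to 38.6 to 48.2 and 66.4 to 100. The list of transcription factors of HSCs separated them too, at 4210 in KO and 3570 to 4030 in WT fresh libraries. Among single tested genes, 9.78% were higher and 9.2% lower in KO fresh cells without overlap. No gene of these lists passed in edgeR between the fresh groups. The part of all these markers and factors in the levels of Tie1, Esam, Procr and Jam2 was not tested.

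Of the remaining genes, Tek, Robo4 and Jam2 had wide standard errors between genotypes, and Eng, Esam, Angpt1 and Cd34 had narrow ones. Tek averaged over conditions had a log2 fold change of 0.70 (SE 0.71), which was 0.37 without the sparse library, and that of Robo4 was 0.63 (SE 0.87), or 0.31 without it. Eng had 0.35 (SE 0.22), or 0.12 without it. Jam2 had 0.88 (SE 0.84), or 0.56 without it, and Esam 0.30 (SE 0.15), or 0.39 without it. Angpt1 and Cd34 were near 0, at -0.04 (SE 0.17) and -0.07 (SE 0.11), or 0.13 and 0.01 without it.

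**Figure D4:**
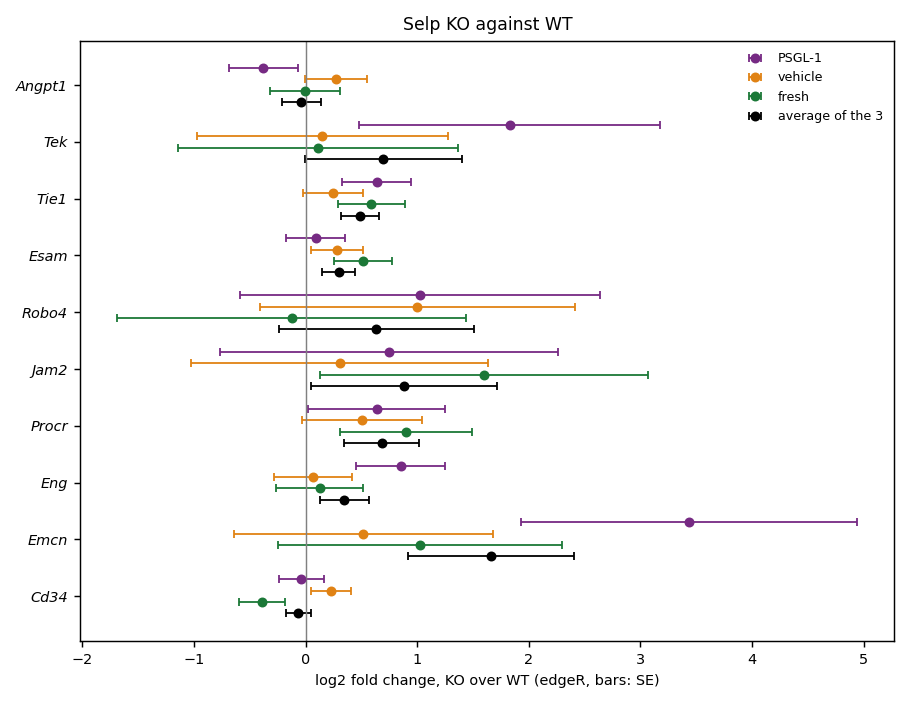
Log2 fold changes of the 10 genes, KO over WT, with PSGL-1, with vehicle, in fresh cells and averaged over the 3 conditions; points are edgeR estimates and bars are 1 SE. The averages of Angpt1 and Cd34 lie at -0.04 and -0.07, the other 8 lie above 0, and the bars of Tek, Robo4, Jam2 and Emcn are the widest.

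No difference between the genotypes in either response passed in edgeR for the 10 genes. For vehicle against fresh, 1 of them, Cd34, had an unadjusted p under 0.05, and for PSGL-1 against vehicle none had. The shares of all tested genes with such a p in edgeR were 2.5% and 4.33%. DESeq2 and limma called none of the 10 either, and edgeR called 0.0% of all tested genes in both.

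Genes with the most similar profiles to 4 of the 10 were ranked by Pearson correlation of log2 CPM among 10673 genes whose mean reached 5 CPM, over 16 libraries that share the fresh and cultured conditions. Angpt1 was followed most closely by Plppr3 (r = 0.959), Uba7 (0.946) and Coq8a (0.911). For Cd34 these were Fdps (0.966), Atp1b3 (0.963) and Aurkb (0.953), and for Procr they were Fmo5 (0.886), Adcy9 (0.88) and Tlcd2 (0.876). For Tek, Zdhhc20 (0.976), Hip1r (0.976) and Tmco3 (0.974) led, but without the sparse library, which lists Tek at 0, the values were 0.761, 0.828 and 0.727. The 9 correlations of Angpt1, Cd34 and Procr lay between 0.877 and 0.964 without that library.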

How the data were processed

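The data are the read counts per gene symbol that the authors deposited, 1 column for each of 16 RNA-seq libraries. RNA came from an RNeasy micro kit and cDNA from SMART Ultra-Low Input chemistry, per the labels' protocols. The submitters' processing notes name the tools STAR 2.7.5c, featureCounts, MultiQC 1.10 and DESeq2 and the genome mm10. How reads with several matches were handled, the strand setting and the annotation: not given in the sources used here.

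Of 25239 genes, 14124 passed filterByExpr and entered 1 edgeR 4.0.16 quasi-likelihood fit (R 4.3.3) with robust estimation and 1 mean per group over all 16 libraries. Library sizes were adjusted with TMM factors. The common biological coefficient of variation was 0.977. Calls are Benjamini-Hochberg adjusted p-values under 0.05 over all tested genes in each of 11 comparisons. Standard errors were taken as the fold change over the root of its F value. Floors and totals cover counting error only. Levels per kilobase use merged exons of GENCODE M21, and positions are those of RefSeq genes on GRCm38.p6 (mm10). No 2 libraries of a group agreed within sampling noise, with a chi-square of at least 59.8 per degree of freedom.

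The members, lists and tests were chosen with earlier results of these data known. Named beside the 10 genes were called genes of each list, up to 2 per direction with the largest fold change, the 2 most abundant genes of a marker list, the 3 genes most like 4 of the members, and Selp. Angpt2, Cldn5, Gdf2, Kdr, Sox18, Meis1, Gata2, Msantd2, Vcam1 and markers at or near 0 counts are named outside that rule, after their values were seen. Alternatives were DESeq2 1.42.0, limma 3.58.1 with voom and library quality weights, RLE scaling, other filters, the compared groups alone, number blocks, and each library left out.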

Additional observations from a re-analysis of the deposited data

How the results depend on the processing

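Averaged over genotypes, vehicle against fresh called 3 of the 10 genes, 4 in DESeq2, without a filter and with the groups alone, each adding Procr, and 5 in limma with library quality weights, which added Procr and Esam. In KO limma called 3, against 2, adding Procr (adjusted p = 0.0242). Leaving out each library in turn gave 2 to 4 there, 1 to 2 for KO and 2 to 2 for WT. It gave 0 to 6 for PSGL-1 against vehicle in WT, 0 to 5 for KO against WT with PSGL-1, 0 to 5 for KO against WT averaged and 0 to 4 for the difference of the PSGL-1 responses. Each of the 4 upper values came without WT PSGL-1 replicate 2, where the sparse replicate 1 alone stands for its group. The sign changed on leaving out single libraries for the averaged KO against WT fold change of Angpt1 (-0.16 to 0.13) and Cd34 (-0.12 to 0.01), and for vehicle against fresh of Jam2 (-0.54 to 0.10). On culture Angpt1 and Cd34 kept their direction in all 24 settings. Angpt1 ran from -2.03 to -1.67 averaged, -2.04 to -1.33 in KO and -2.12 to -1.85 in WT, and Cd34 from 1.41 to 1.55, 1.66 to 1.94 and 1.06 to 1.31. With the title numbers as a replicate block, the counts of called genes were 2 in KO, 2 in WT and 3 averaged, and no call on the 10 genes changed. Same-numbered libraries deviated together with r of -0.0786 to 0.0795, and those of one set of library numbers with r of -0.0798 to 0.107, with 1 of 36 pairs over 0.1, so neither was taken to pair libraries. The set block gave the same counts, 2, 2 and 3.

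Over all tested genes, vehicle against fresh averaged called 915 genes, against 1780 in DESeq2, 1917 in limma, 1455 with the groups alone and 552 to 1566 with a library left out. In KO it called 250, against 831 in DESeq2, 544 in limma and 76 to 554, and in WT 231, against 797, 713 and 85 to 440. KO against WT called 1 gene in each condition and 5 averaged. DESeq2 called 250 with PSGL-1, 111 with vehicle, 93 in fresh cells and 241 averaged. Limma called 0, 3, 7 and 5, no filter gave 3 in fresh cells, the groups alone 0 with PSGL-1 and 2 in fresh cells, and leaving out a library up to 2979, 8, 83 and 2272. PSGL-1 against vehicle called 0 genes, against 41 in KO and 229 in WT in DESeq2 and up to 2955 in WT with a library left out. For the differences of response, DESeq2 called 69 for vehicle and 118 for PSGL-1, and leaving out a library up to 31 and 2370, against 0.

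Precision was lowest for Tek, Robo4, Emcn and Jam2, which WT PSGL-1 replicate 1 lists at 0, though its total was the third highest. The cause was not tested.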
